A study of Mus musculus with 6 samples.

Results

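The cells described here are gonadal somatic cells of XX mouse embryos at 2 neighbouring embryonic days, E13.5 and E14.5. A barcode was a member if it had at least 500 detected genes, at most 10% of its UMIs (unique molecular identifiers, counted transcript copies) from mitochondrial genes, at least 1 UMI of Gata4 and fewer than 3 summed UMIs of the germ cell genes Dazl, Ddx4, Dppa3, Dppa5a and Pou5f1. Barcodes present in both libraries were left out. The rule kept 1626 of 4671 barcodes at E13.5 and 1410 of 4675 at E14.5, so 3036 of 9346 in the pair of libraries and of 29398 in the series of 6 libraries. Gata4 and the 5 germ cell genes chose the cells, so their levels are no result, and Gata4 stood at 172 CPM (counts per 1000000 summed UMIs) at E13.5 and 177 CPM at E14.5.

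GATA4 is a zinc finger transcription factor that the somatic cells of the gonadal ridge need from their earliest stage, and it marks both supporting and stromal cells of the fetal ovary. Supporting cells of the XX gonad become pregranulosa cells, which wrap germ cells and later form the follicle wall; they depend on FOXL2 and on RSPO1, WNT4 and beta-catenin signalling. Stromal, or interstitial, cells lie between the germ cell cords, carry NR2F2 (COUP-TFII) and lay down collagen. At these stages XX germ cells are leaving mitosis for meiosis.

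The series profiled gonads of XX embryos of the ICR outbred strain with droplet single-cell RNA-seq (10x Chromium 3′ v2), beside gonad-like cells made from embryonic stem cells, to compare the 2 sources of somatic cells. Both libraries used here came from ICR XX gonad dissociated with papain, 1 library per stage, with no genetic change or treatment stated. How many embryos were pooled in each is not given in the sources used here. With 1 library per stage there is no replicate check and no test: intervals below are 95% counting intervals, which do not cover differences between embryos, dissections or library preparations.

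Members held 16887080 UMIs at E13.5 and 13672457 at E14.5, with a median of 8513.5 and 7422.5 UMIs and of 2458.5 and 2294.5 genes per cell. Of barcodes that passed the gene and mitochondrial limits, were not shared and were under the germ cell limit, 55.3% at E13.5 and 46.3% at E14.5 had a Gata4 UMI. Near the limits, 885 members at E13.5 (54.4%) and 865 at E14.5 (61.3%) had exactly 1 Gata4 UMI, 149 and 39 had 2 germ cell UMIs, and 41 and 7 Gata4-positive barcodes just outside had 3. In gene number, 0 and 5 members lay less than 100 genes above the limit, and 0 and 4 Gata4-positive barcodes that met the other limits lay up to 100 genes below it. The libraries shared 114 barcodes, more than the 17 to 45 that other pairs of in vivo libraries shared; the shared barcodes were shallow (median 1509 UMIs at E13.5 and 1146.5 at E14.5), and 12 in each library would otherwise have been members.

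The label was checked against markers. Supporting lineage markers summed to 2518 CPM at E13.5 and 2202 CPM at E14.5, and stroma markers to 509 and 979 CPM, with all 11 and all 10 listed genes detected at both stages. Cells were split by 6 supporting genes (Fst, Foxl2, Irx3, Kitl, Runx1, Wnt6) against 6 stromal genes (Nr2f2, Tcf21, Pdgfra, Nr2f1, Dcn, Mgp), taking the larger sum where it reached 3 UMIs. The supporting-gated share was 73.4% at E13.5 (1194 cells, interval 71.2% to 75.6%) and 63.5% at E14.5 (896 cells, 60.97% to 66.1%). The stromal-gated share was 21.96% (357 cells, 19.96% to 24.0%) and 30.6% (431 cells, 28.2% to 33.0%). The remaining 4.61% and 5.89% reached neither gate, and 8.49% and 10.6% lay within 1 UMI of a gate limit, so the gates are ranges of a score and not cell types. In a sum over cells, fewer cells of a type and less RNA per cell cannot be told apart, so the comparison is given over all members and again within each gate.

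Other cell types left small traces that differed between the stages. The 4 globin genes of the erythroid gate rose from 383 to 1432 CPM, and stood at 207 and 494 CPM without the 1 and 2 members that took at least 1% of their UMIs from globin. Leukocyte markers stood at 12.1 and 26.4 CPM, with 1 of the 10 at 0 at E14.5, and at 5.57 and 7.91 CPM without the 2 and 1 members richest in them. Endothelium markers stood at 158 and 111 CPM, and 30 and 31 members held at least 5 summed UMIs of Pecam1, Cdh5, Kdr, Emcn and Cldn5. The 14 germ cell markers summed to 97.1 and 136.7 CPM, the 8 surface epithelium markers to 260 and 310 CPM, and the 10 mesonephric markers to 45.2 and 45.6 CPM with 2 at 0. The part of these cells in the results below was not tested, except where a value without them is given.

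Across all members, 194 genes (3.47% of 5587 tested) were at least 1.5-fold higher at E14.5 and 58 (1.04%) at least 1.5-fold lower. A gene was tested if it reached 20 CPM at either stage, and in what follows rose and fell mean past 1.5-fold. The median gene moved by 0.04 on the log2 scale. Of 27 lists of known function, 2 had more than 2 members higher, the immediate early response genes and the genes of the interstitial matrix, and none had more than 2 members lower. Of the 194 that rose, 178 were at their highest of the 4 in vivo stages, which begin at E11.5, and 81 had already risen at least 1.5-fold from E12.5 to E13.5, while 15 had moved at least 1.5-fold the other way and 98 neither. Of the 58 that fell, 47 were at their lowest at E14.5, 13 had also fallen from E12.5 to E13.5, 14 had risen and 31 had done neither. E13.5 enters both of those intervals. The 194 and the 58 were chosen by E14.5 against E13.5, so an extreme level at E14.5 is partly set by that choice. Over all 5587 tested genes, 1778 were highest at E14.5 and 1697 were lowest.

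**Figure D1:**
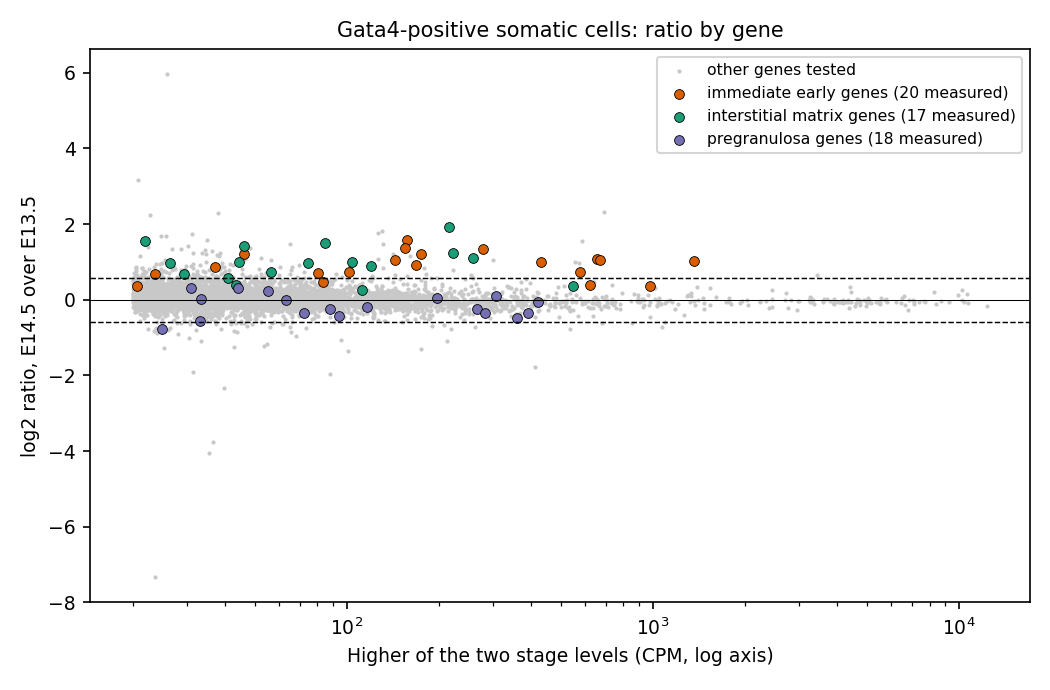
Log2 ratio of E14.5 over E13.5 in Gata4-positive somatic cells (y axis) against the higher of the stage levels in CPM (x axis, log scale), 1 point per tested gene, with dashed lines at 1.5-fold. The 20 immediate early genes (orange) lie above 0 and 16 of them above the upper line, 13 of 17 interstitial matrix genes (green) lie above it, and the 18 pregranulosa genes (purple) lie between the lines except Msx1.

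Immediate early genes are switched on within minutes of a stimulus without new protein synthesis; they encode the AP-1 factors of the FOS and JUN families, the EGR, KLF and NR4A factors, and feedback regulators such as the RNA-binding protein ZFP36 and the phosphatase DUSP1. Many answer to the factors CREB and SRF, which bind the cyclic AMP response element (CRE) and the CArG box. RefSeq promoter windows (GRCm38.p6, the 250 bases before each start site) were at hand for 17 of the 20 genes. The CRE, TGACGTCA searched on both strands, was in the windows of 2 of them, Btg2 and Dusp1, and in 1.55% of all 32851 windows. A CArG box, also searched on both strands, was in windows of Egr2 and Zfp36, and in 1.47% of all windows. The pair of windows with a CRE is shown because both genes rose about 2-fold, with the CRE in capitals. The Btg2 window is chr1:134079156-134079405 on the minus strand, with 158 bases between the CRE and the start site. The Dusp1 window is chr17:26508520-26508722 on the minus strand, with 135 bases between the CRE and the start site, and with the 47 bases nearest the start left out because GENCODE places an exon there. A match is a description of letters, not of binding.
Btg2: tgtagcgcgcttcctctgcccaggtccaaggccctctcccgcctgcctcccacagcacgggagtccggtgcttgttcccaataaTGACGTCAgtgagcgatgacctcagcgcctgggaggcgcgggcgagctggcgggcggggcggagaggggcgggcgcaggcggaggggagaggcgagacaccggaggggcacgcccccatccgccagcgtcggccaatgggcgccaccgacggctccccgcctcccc
Dusp1: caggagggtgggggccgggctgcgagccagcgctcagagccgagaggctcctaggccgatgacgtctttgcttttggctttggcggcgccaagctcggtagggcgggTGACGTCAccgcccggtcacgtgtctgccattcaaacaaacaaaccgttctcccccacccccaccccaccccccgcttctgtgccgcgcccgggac

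Of the 20 immediate early genes, 16 rose and 0 fell, with a median log2 ratio of 0.95, against 3.47% of all genes higher and a median of 0.04. Fos, the AP-1 subunit after which the family is named, went from 666 to 1357 CPM (2.04-fold, interval 1.99 to 2.09). Egr1, a zinc finger factor, went from 325 to 669 CPM (2.06-fold, 1.99 to 2.13). Atf3, a stress-induced AP-1 partner, had the largest ratio, from 52.9 to 158 CPM (2.98-fold, 2.75 to 3.22). In these 3 genes the stage intervals are far apart, and counting error is small beside the difference.

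The other AP-1 genes moved unevenly. Fosb went from 111 to 279 CPM (2.52-fold), Fosl2 from 20.1 to 46.2 CPM, Junb from 216 to 429 CPM (1.99-fold) and Jun from 346 to 578 CPM (1.67-fold). Jund, another JUN family gene, stood at 760 and 979 CPM and did not reach 1.5-fold. Among the zinc finger factors, Klf4 rose from 75.4 to 175 CPM (2.32-fold), Klf6 from 61.8 to 102 CPM, Egr2 from 49.2 to 80.6 CPM and Egr3 from 14.6 to 23.6 CPM, while Klf2 stood at 60.05 and 83.7 CPM. The orphan receptor Nr4a1 rose from 89.5 to 169 CPM. The feedback regulators rose as well: Zfp36, which destabilises AU-rich mRNAs, from 59.6 to 155 CPM (2.60-fold, 2.41 to 2.81), Btg2, an antiproliferative cofactor, from 311 to 656 CPM (2.11-fold), and Dusp1 from 69.5 to 143 CPM (2.06-fold). Ier3 rose from 20.3 to 37.2 CPM, and Ier2 (477 and 622 CPM) and Ier5 (16.0 and 20.6 CPM) did not pass. The members not past 1.5-fold, Jund, Klf2, Ier2 and Ier5, were still above 1-fold.

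Within the supporting gate 16 of 19 measured immediate early genes rose (3.85% of all genes did) with a median of 1.06, and within the stromal gate 13 of 19 rose (4.06% of all genes did) with a median of 0.73. None fell in either gate, where 1.08% and 2.38% of all genes did. Atf3 differed most between the gates: 42.3 and 169 CPM in supporting-gated cells (3.997-fold, interval 3.63 to 4.41) against 78.7 and 120 CPM in stromal-gated cells (1.52-fold, 1.302 to 1.78). At E13.5 stromal-gated cells had the higher Atf3 level, and at E14.5 supporting-gated cells did. With the gate shares of E13.5 applied to E14.5, 16 of 19 still rose, where 172 of 5583 tested genes rose.

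The change was a shift of the whole distribution over cells. With each cell thinned to 3000 UMIs (5 members at E13.5 and 25 at E14.5 were shallower and left out), the 20 genes gave a mean of 12.1 UMIs per cell at E13.5 and 20.9 at E14.5, with medians of 9 and 18. The cells at the 10% and 90% points of the distribution had 2 and 26 UMIs at E13.5 and 6 and 40 at E14.5. Cells with at least 10 of these UMIs made up 47.4% at E13.5 and 78.1% at E14.5. After thinning, a Fos UMI was found in 68.1% of members at E13.5 (interval 65.8% to 70.4%) and 89.0% at E14.5 (87.2% to 90.6%), and without thinning in 87.8% and 97.0%. In endothelium-gated cells, which express Fos themselves, the thinned share was 48.9% and 66.7%.

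**Figure D2:**
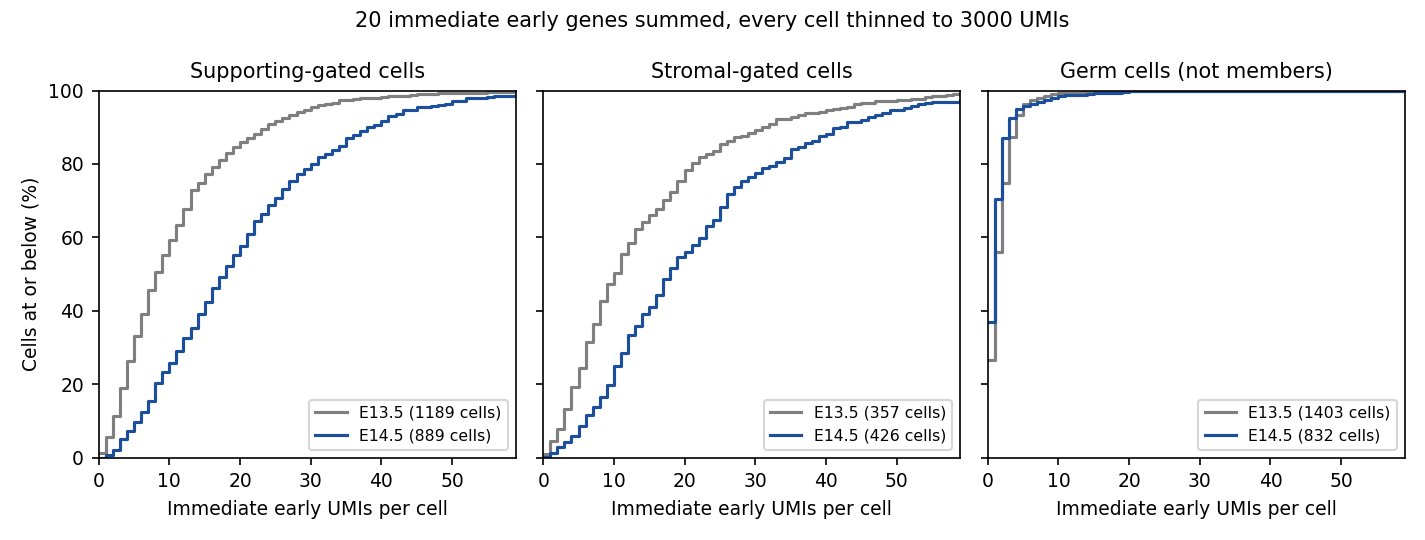
Cumulative share of cells (y axis, %) at or below each number of summed immediate early UMIs (x axis) after thinning to 3000 UMIs, at E13.5 (grey) and E14.5 (blue), in supporting-gated, stromal-gated and germ cells. The E14.5 curve lies to the right in both somatic gates, with a median of 8 against 18 UMIs in the supporting gate and 10 against 18 in the stromal gate, and the germ cell medians are 1 and 1.

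Cells of the same libraries outside the rule were measured the same way. In germ cells (1407 at E13.5 and 835 at E14.5, at least 10 germ cell UMIs), the mean was 1.78 UMIs at E13.5 and 1.43 at E14.5, and 3 of 9 measured immediate early genes rose and 2 fell, where 24.1% of all genes rose and 23.4% fell. The median of those 9 genes was 0.40, with 6 above 1-fold, among them Fosb at 10.3 and 22.9 CPM and Btg2 at 20.2 and 38.7 CPM. In endothelium-gated cells (47 and 41), 15 of 19 rose with a median of 0.75, where 14.9% of all genes rose, and the mean was 11.4 and 17.2 UMIs. The endothelium gate required at least 5 summed UMIs of Pecam1, Cdh5, Kdr, Emcn and Cldn5, fewer than 3 germ cell UMIs and no Gata4 UMI. Over the stages, the 20 genes summed to 1890, 2478, 3801 and 6761 CPM at the 4 stages in turn in cells chosen by the same rule, and 19 of 20 were highest at E14.5, as were 31.8% of all tested genes. Whether dissection or dissociation differed between libraries is not given in the sources used here, and its part in this result was not tested. Of 16 heat shock genes 13 were measured: Dnajb1, an HSP40 co-chaperone, rose from 78.4 to 121 CPM, 0 fell, and the median was -0.07.

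Interstitial matrix genes were the other group that rose. These encode the fibrillar collagens, the small proteoglycans that bind them and the elastic fibre proteins. Of 22 listed genes 17 reached 20 CPM, and 13 of these rose and 0 fell, with a median log2 ratio of 0.98, against 3.47% of all genes higher. Lum, Ogn, Postn, Tnc and Vcan stayed under 20 CPM.

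Col1a1, which encodes the main chain of type I collagen (chr11:94936224-94953042, plus strand), led the genes at 50 CPM or more once blood and germ cell genes were left out, from 57.0 to 216 CPM (3.79-fold, interval 3.52 to 4.08). Its partner chain Col1a2 went from 94.7 to 223 CPM (2.35-fold, 2.21 to 2.50), and Col3a1, the type III chain, from 120 to 258 CPM (2.16-fold). All 3 had fallen or stayed within 1.5-fold from E11.5 to E12.5: Col1a1 stood at 33.9 and 19.7 CPM, Col1a2 at 67.3 and 49.2 CPM and Col3a1 at 86.5 and 79.7 CPM. Each was highest at E14.5.

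The proteoglycans Dcn (decorin, 30.1 to 84.8 CPM) and Bgn (biglycan, 64.8 to 120 CPM) rose, as did Mgp, the matrix Gla protein that blocks calcification (51.8 to 104 CPM). Among elastic fibre genes, Eln (elastin) rose from 17.4 to 46.2 CPM and Fbn1 (fibrillin 1) from 13.3 to 26.3 CPM, while Fbn2 stood at 93.3 and 112 CPM. Type VI collagen, which links fibres to cells, rose in all 3 chains: Col6a1 34.0 to 56.4 CPM, Col6a2 37.7 to 74.4 CPM and Col6a3 7.46 to 21.9 CPM. Fn1 (fibronectin) rose from 22.03 to 44.3 CPM and Col5a1 from 18.4 to 29.4 CPM. Sparc, a collagen-binding protein that was already at 429 CPM, stood at 548 CPM, and Col5a2 and Col12a1 also missed 1.5-fold. Mfap4, a microfibril protein outside the list, rose from 53.1 to 160 CPM (3.01-fold, 2.79 to 3.26). The basement membrane list behaved differently: of 8 measured genes 0 rose and 0 fell, with a median of 0.05, and Col4a1 stood at 95.9 and 82.4 CPM.

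The matrix genes were next split by gate. Stromal-gated cells gave 12 of 16 measured matrix genes higher (4.06% of all genes were), with a median of 0.82. Supporting-gated cells gave 5 of 13 (3.85% of all genes), with a median of 0.49. Dcn and Mgp are genes of the gate and are not counted in either. In stromal-gated cells Col1a1 stood at 232 and 609 CPM (2.63-fold, interval 2.42 to 2.86), and in supporting-gated cells at 13.53 and 58.7 CPM (4.34-fold, 3.66 to 5.17). After thinning, a Col1a1 UMI was in 42.6% of stromal-gated cells at E13.5 and 74.4% at E14.5, and in 1.93% and 7.42% of supporting-gated cells. Endothelium-gated cells gave 6.38% and 5.13% in 47 and 39 cells, with intervals up to 17.5% and 17.3%. These endothelium intervals are too wide for a comparison with the supporting-gated shares. In their summed UMIs, endothelium-gated cells stood at 27.6 and 14.8 CPM of Col1a1 (17 and 6 UMIs). Germ cells stood at 6.68 and 21.8 CPM of Col1a1 (145 and 212 UMIs), below supporting-gated cells at both stages. Their Col1a1 was also higher at E14.5 (3.26-fold, interval 2.63 to 4.06). The part of background in the supporting-gated values was not tested. Col12a1, a fibril-associated collagen, rose in stromal-gated cells (9.65 to 27.4 CPM) and stood at 40.1 and 49.99 CPM in supporting-gated cells.

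The stromal-gated share was also larger at E14.5, but it is not independent of the matrix genes: the stromal gate holds Dcn and Mgp, which rose, and the supporting gate holds Fst, Foxl2 and Irx3, which were lower at E14.5. With Dcn and Mgp left out of the gate, the stromal-gated share went from 19.8% (interval 17.9% to 21.8%) to 25.2% (22.999% to 27.6%). With the gate shares held at those of E13.5, 10 of 16 matrix genes rose with a median of 0.78, where 172 of 5583 tested genes rose. Col1a1 was then 2.97-fold higher. With the gate without Dcn and Mgp, 12 matrix genes rose with a median of 0.83, where 175 of 5583 tested genes rose. The 8 perivascular and smooth muscle markers summed to 119.9 CPM at E13.5 and 246.3 CPM at E14.5, with none at 0. Of the 8, 3 reached 1.5-fold higher and 0 reached 1.5-fold lower. Acta2 (smooth muscle actin) made up 69.2 and 146 CPM of the sums, and Tagln (transgelin) 23.3 and 65.1 CPM (2.80-fold, 2.48 to 3.16). The pericyte marker Rgs5 also passed 1.5-fold but stayed low (2.78 and 5.78 CPM). The rest stayed within 1.5-fold. Among them were the smooth muscle genes Myh11 (8.47 and 10.97 CPM) and Des (7.22 and 6.44 CPM), and the pericyte marker Kcnj8 (1.01 and 1.32 CPM). Without members that held at least 1 perivascular or 2 endothelium UMIs, 6 matrix genes rose with a median of 0.47, where 202 of 5427 tested genes rose. This leaves 965 and 738 cells, and the cells left out can be stromal cells. Per cell, thinned, stromal-gated cells had a median of 7 matrix UMIs at E13.5 and 11 at E14.5, and supporting-gated cells 2 and 2.

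**Figure D3:**
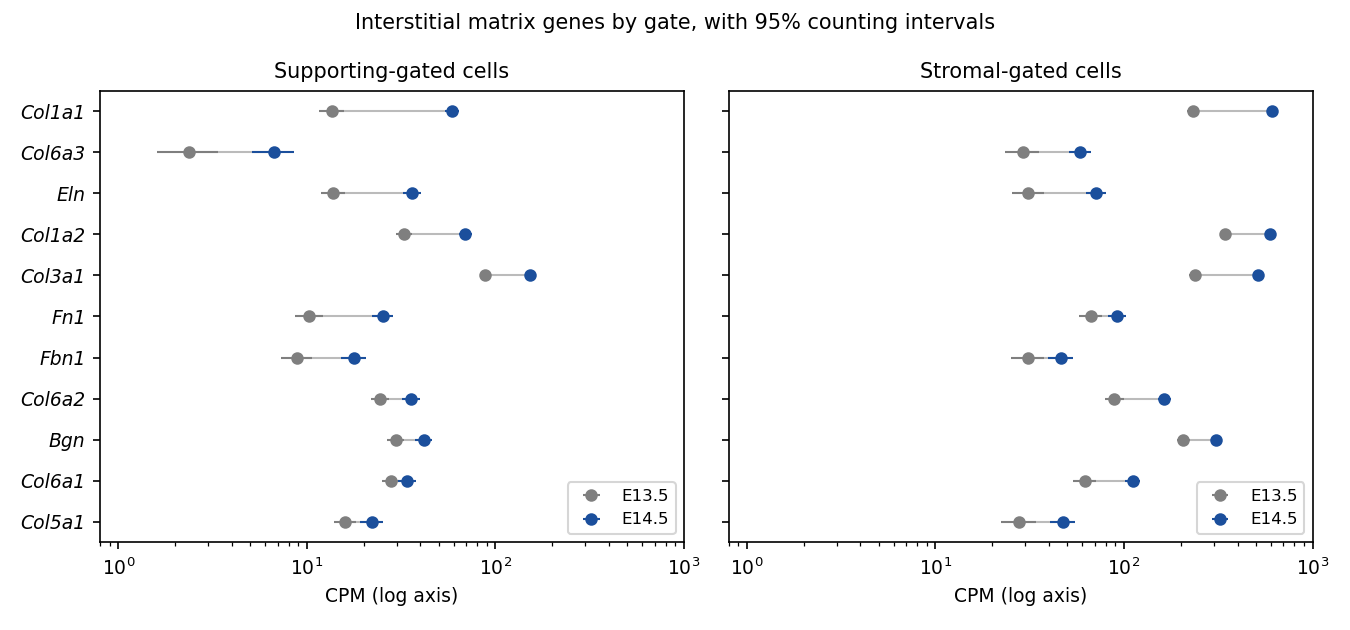
Level of the 11 interstitial matrix genes that rose over all members and are not gate genes, in CPM (x axis, log scale), in supporting-gated and stromal-gated cells at E13.5 (grey) and E14.5 (blue), with bars for 95% counting intervals. Levels are higher at E14.5 for each gene in both gates, and higher in stromal-gated than in supporting-gated cells at each stage.

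Other named genes that rose include regulators of cytokine and growth factor signalling. Socs3, a feedback inhibitor of JAK and STAT signalling, went from 37.5 to 127 CPM (3.37-fold, 3.08 to 3.70), with 21.3 and 76.8 CPM in the supporting gate and 99.0 and 241 CPM in the stromal gate. Lsp1, an actin-binding protein best known in leukocytes, went from 46.8 to 131 CPM (2.79-fold), mostly in stromal-gated cells (164 and 339 CPM). Serpina3a, a serine protease inhibitor of a multigene family whose reads may be split between copies, went from 72.5 to 161 CPM, and Alcam, a cell adhesion molecule, from 64.8 to 142 CPM.

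Among growth and signalling genes, Igfbp5, which binds insulin-like growth factors, rose from 292 to 574 CPM as 1 of 8 measured IGF pathway genes. Tgfb2, a TGF-beta ligand, rose from 19.8 to 39.2 CPM as 1 of 9 measured genes of its family, with 0 lower. Spry2, an inhibitor of receptor tyrosine kinase signalling, rose from 25.8 to 45.5 CPM as 1 of 5 measured FGF and ERK targets. Fgf2 rose from 13.3 to 20.5 CPM as 1 of 10 germ cell niche signals. The other measured genes of these lists stayed within 1.5-fold, and 3.47% of all genes rose. Tgfb2 stood at 68.1 and 95.4 CPM in the stromal gate (1.40-fold). In the supporting gate it stood at 7.87 and 15.9 CPM, too low to be tested. Spry2 stood at 52.9 and 60.3 CPM in the stromal gate (1.14-fold) and at 19.3 and 40.5 CPM in the supporting gate (2.09-fold).

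Among 19 measured imprinted genes 2 rose and 0 fell: the maternally expressed RNA Meg3 (277 to 557 CPM, 2.01-fold) and its paternally expressed neighbour Dlk1 (161 to 254 CPM). Dlk1 was at 518 and 637 CPM in stromal-gated cells and at 63.0 and 93.4 CPM in supporting-gated cells, and reached 1.5-fold in neither gate (log2 0.30 and 0.57). Crabp1, a retinoic acid binding protein, rose from 19.8 to 36.6 CPM over all members, as 1 of 5 measured retinoic acid genes. It stood at 72.2 and 99.4 CPM in the stromal gate, under 1.5-fold, and at 6.50 and 10.7 CPM in the supporting gate, too low to be tested. Of 6 measured nuclear receptors, Thra (57.8 to 92.3 CPM) and Nr3c1, the glucocorticoid receptor (15.2 to 23.1 CPM), rose. That list gave 1 of 5 higher in the supporting gate and 0 of 5 in the stromal gate. Gli3, the 1 measured gene of 6 on the Hedgehog list, rose from 20.2 to 32.4 CPM. For comparison with the counts of these lists, 3.47% of all tested genes rose.

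Sox9, the testis-determining target of SRY, stayed low in these XX cells and rose from 11.7 to 20.5 CPM (1.76-fold, 1.46 to 2.12), with 13.7 and 26.8 CPM in the supporting gate. After thinning, a Sox9 UMI was in 4.29% (3.21% to 5.60%) and 6.64% (5.09% to 8.48%) of supporting-gated cells, and in 1.12% and 1.41% of stromal-gated cells. In endothelium-gated cells the shares were 4.26% (0.520% to 14.54%) and 0 of 39 (up to 9.03%). These endothelium intervals are too wide for a comparison. The supporting-gated shares lay above the stromal-gated shares at both stages, whose intervals reached 2.84% and 3.04%. The part of background in the supporting-gated shares was not tested. Sox9 stood at 0.645 and 1.65 CPM in germ cells and at 4.86 and 14.8 CPM (3 and 6 UMIs) in endothelium-gated cells. Aard, the other measured gene of the Sertoli list, stood at 61.1 and 59.9 CPM, and Amh, the hormone of Sertoli cells, at 0.296 and 0.366 CPM.

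**Figure D4:**
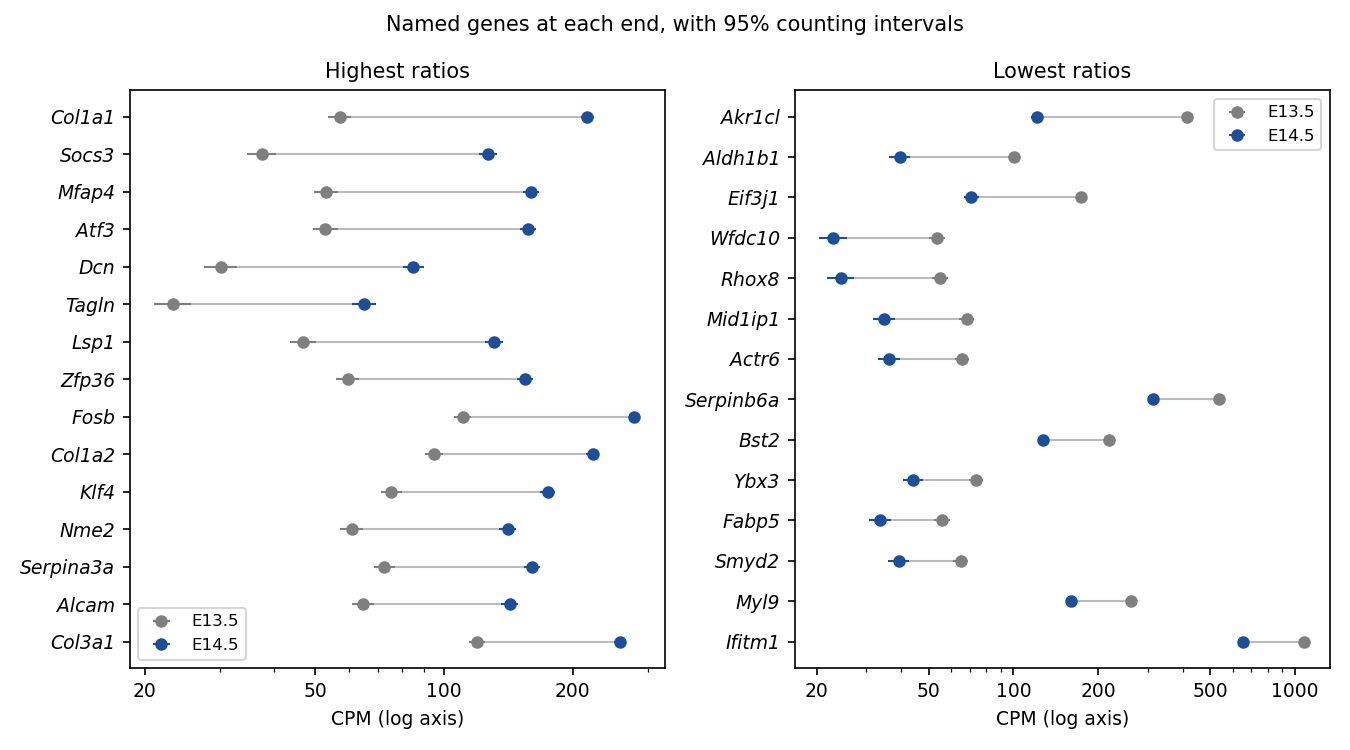
Level in CPM (x axis, log scale) at E13.5 (grey) and E14.5 (blue) of named genes with the highest and the lowest ratios among genes of at least 50 CPM, with bars for 95% counting intervals. Col1a1 leads the left panel (57.0 to 216 CPM) and Akr1cl the right (412 to 121 CPM), and the stage intervals overlap for none of the genes shown.

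Akr1cl, an aldo-keto reductase (chr1:65012689-65032759, minus strand), led the genes at 50 CPM or more that fell, from 412 to 121 CPM (3.40-fold lower, interval 3.22 to 3.59), after 798 CPM at E11.5 and 416 CPM at E12.5. The fall was in supporting-gated cells (506 to 143 CPM), where the thinned share of cells with a UMI went from 59.4% (56.5% to 62.2%) to 27.9% (24.97% to 31.0%); stromal-gated cells stood at 88.1 and 68.0 CPM. Aldh1b1, a mitochondrial aldehyde dehydrogenase, fell from 100.7 to 39.6 CPM (2.55-fold lower, 2.31 to 2.81), and was at 126 and 53.4 CPM in the supporting gate and 14 and 7.44 CPM in the stromal gate.

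Further genes that fell had low levels in stromal-gated cells. Rhox8, a reproductive homeobox gene, went from 54.8 to 24.4 CPM over all members and from 70.2 to 34.8 CPM in the supporting gate, against 1.56 and 1.06 CPM in the stromal gate. Wfdc10, of the whey acidic protein family, went from 53.8 to 22.9 CPM and from 67.9 to 31.6 CPM in the supporting gate. The supporting-gated share was smaller at E14.5, as given above, and both genes also fell within that gate.

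Serpinb6a, an intracellular protease inhibitor, fell from 535 to 313 CPM (1.71-fold lower, 1.65 to 1.77), with 629 and 363 CPM in the supporting gate and 215 and 204 CPM in the stromal gate. Myl9, a myosin light chain, fell from 262 to 160 CPM over all members and from 287 to 151 CPM in the supporting gate, and stood at 175 and 182 CPM in the stromal gate. Mid1ip1, a regulator of lipogenesis and microtubules, fell from 68.2 to 34.8 CPM, and in the stromal gate stood at 11.2 and 14.3 CPM. Fabp5, a fatty acid binding protein, fell from 55.8 to 33.6 CPM, most in stromal-gated cells (116 to 45.7 CPM). Smyd2, a lysine methyltransferase, fell from 65.0 to 39.3 CPM, Ybx3, a cold shock RNA-binding protein, from 73.7 to 44.2 CPM, and Actr6, a chromatin remodelling subunit, from 65.6 to 36.1 CPM.

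Of 9 measured genes of antigen presentation and interferon response, 2 fell and 1 rose (1.04% and 3.47% of all genes did), with a list median of 0.05. Ifitm1, a marker shared by early germ cells and gonadal somatic cells, fell from 1072 to 656 CPM (1.64-fold lower, 1.59 to 1.68), with 357 and 221 CPM in the stromal gate. Bst2 (tetherin) fell from 218 to 128 CPM (1.71-fold lower). Germ cells of the same libraries also had less of each, 621 and 175 CPM of Ifitm1 and 64.6 and 24.1 CPM of Bst2. H2-D1, a class I histocompatibility gene, was the gene of that list that rose, from 12.3 to 20.2 CPM, and germ cells had 39.9 and 322 CPM of it. Reads of H2-D1 and of the Ifitm genes may be split with near-identical copies.

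A pair of changes has a near-identical copy to set beside it. Eif3j1, a translation initiation subunit, fell from 174 to 70.9 CPM (2.45-fold lower, 2.28 to 2.64), while its copy Eif3j2 stood at 50.4 and 48.9 CPM; germ cells had 145 and 98.6 CPM of Eif3j1. Nme2, a nucleoside diphosphate kinase, rose from 60.9 to 141 CPM (2.31-fold), while its neighbour Nme1 stood at 238 and 183 CPM; Nme2 rose in both gates, and in germ cells (33.7 and 54.5 CPM) and in endothelium-gated cells (61.6 and 155 CPM). How reads that match both copies were counted is not given in the sources used here, so the split between copies is uncertain.

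The pregranulosa genes stayed mostly within 1.5-fold. Of 20 listed genes 18 were measured, 0 rose and 1 fell, with a median log2 ratio of -0.21, against a background of 3.47% higher and 1.04% lower. The gene that fell was Msx1, a homeobox target of BMP signalling, from 24.8 to 14.4 CPM (1.72-fold lower, 1.45 to 2.05). Foxl2, the forkhead factor of granulosa identity, stood at 94.5 and 70.6 CPM. Fst (follistatin, an activin antagonist) stood at 360 and 257 CPM, and the homeobox gene Irx3 at 390 and 305 CPM. These 3 were lower at E14.5 by more than counting error and by less than 1.5-fold.

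Ligands of the supporting lineage did not pass 1.5-fold. Kitl, the KIT ligand that germ cells need, stood at 287 and 307 CPM, Wnt4 at 191 and 197 CPM, Wnt6 at 266 and 224 CPM, Bmp2 at 88.0 and 73.8 CPM and Rspo1, the amplifier of WNT signalling, at 282 and 220 CPM. Among receptors, Lgr5, which binds RSPO1, stood at 47.1 and 55.3 CPM and Amhr2, the receptor of anti-Müllerian hormone, at 117 and 103 CPM. The factor Runx1 stood at 63.4 and 63.3 CPM, Irx5 at 25.05 and 31.0 CPM, and the cyclin kinase inhibitor Cdkn1b at 32.7 and 33.4 CPM. Gng13, a G protein subunit that rose from 11.2 CPM at E11.5 to 160 CPM at E12.5, stood at 420 and 401 CPM. Wnt and beta-catenin targets gave 0 of 6 measured genes in either direction over all members, with Axin2 at 46.3 and 49.4 CPM. The gates differed for this list. Supporting-gated cells gave 1 of 7 higher (3.85% of all genes were) and 0 lower, with a median of 0.35 and all 7 above 1-fold. Stromal-gated cells gave 0 of 5 higher and 2 lower (2.38% of all genes were), with a median of -0.55.

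Within the supporting gate, with the gate genes not counted, 0 of 12 measured pregranulosa genes rose and 1 fell, with a median of -0.05. Of all genes in that gate, 3.85% rose and 1.08% fell. With the gate shares of E13.5 the median over 18 pregranulosa genes was -0.08. In that gate, whose genes are not independent of it, Foxl2 stood at 120 and 97.1 CPM and Fst at 462 and 367 CPM. One limit changes this picture. At most 5% mitochondrial UMIs, in place of 10%, gave 9 pregranulosa genes lower with a median of -0.60, and Foxl2 at a log2 ratio of -1.20. Of all 5609 genes tested under that limit, 149 were lower. Supporting-gated cells had the higher mitochondrial share (medians of 4.94% and 5.86% at the stages in turn, against 3.65% and 3.72% in stromal-gated cells), and under that limit the supporting-gated share was 60.9% at E13.5 and 32.5% at E14.5.

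**Figure D5:**
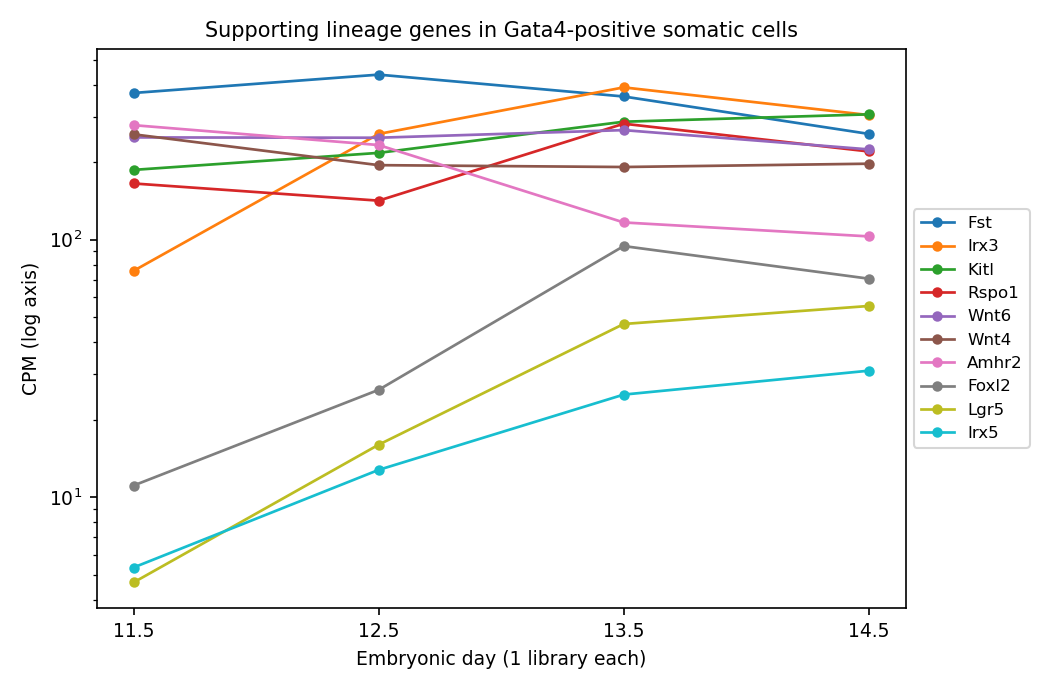
Level in CPM (y axis, log scale) of 10 supporting lineage genes in Gata4-positive somatic cells at E11.5, E12.5, E13.5 and E14.5 (x axis), 1 library per stage. From E13.5 to E14.5 each line moves by less than 1.5-fold, whereas Foxl2 went from 11.1 CPM at E11.5 to 94.5 CPM at E13.5, Lgr5 from 4.67 to 47.1 CPM and Irx3 from 75.7 to 390 CPM.

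Regulators of the gonadal primordium gave 0 of 7 measured genes in either direction, with a median of -0.12. Wt1, the Wilms tumour factor, stood at 326 and 370 CPM, Nr5a1 (SF-1), the master factor of steroidogenic tissue, at 48.0 and 44.2 CPM, and the LIM homeobox gene Lhx9 at 219 and 190 CPM. Within the stromal gate Lhx9 went from 180 to 98.3 CPM (1.83-fold lower), and in the supporting gate it stood at 226 and 230 CPM. Wnt4 went the other way in the stromal gate, from 97.1 to 174 CPM (1.79-fold, interval 1.56 to 2.06). Stromal markers over all members were Nr2f2 at 133 and 142 CPM, Tcf21 at 64.3 and 89.5 CPM and Pdgfra, the PDGF receptor, which rose from 35.4 to 55.4 CPM (1.56-fold, 1.40 to 1.74). Of 10 steroidogenic genes 3 were measured and 0 passed in either direction, with a median of -0.01; under 20 CPM were Star at 8.47 and 11.4 CPM and Cyp11a1, the side-chain cleavage enzyme, at 1.303 and 0.293 CPM after 45.6 CPM at E11.5.

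Cell cycle genes are summarised by list. Of 13 measured S phase genes 0 moved past 1.5-fold (median -0.15), and of 13 G2/M genes Mki67, the proliferation marker, rose from 21.9 to 33.3 CPM (1.52-fold, 1.32 to 1.75) with a list median of 0.18. Mki67 stood at 12.2 and 18.9 CPM in the supporting gate and 60.1 and 67.5 CPM in the stromal gate, and did not pass with the gate shares held at those of E13.5 (1.33-fold). With those shares held, the G2/M list median was -0.015, with 6 of 13 genes above 1-fold. By gate it was 0.25 over 9 genes in supporting-gated cells and -0.15 over 18 genes in stromal-gated cells. Glycolysis and hypoxia genes gave 0 of 15 past 1.5-fold with a median of -0.28; Gapdh stood at 1263 and 947 CPM, after 2805 and 1930 CPM at the earlier stages, and Pkm at 294 and 212.5 CPM. Metallothioneins, which bind zinc and copper, gave 1 of 3: Mt2 rose from 131 to 197 CPM, with 157 and 272 CPM in the supporting gate (1.74-fold, 1.64 to 1.84) and 39.8 and 27.1 CPM in the stromal gate, while Mt1 stood at 462 and 643 CPM. The metal response element core TGCNCNC, searched on both strands, was in the windows of all 4 metallothionein genes and in 44.4% of all windows. BMP targets gave 0 of 7 higher and Msx1 lower, with Id2 at 264 and 384 CPM, and the Notch target Hes1 stood at 557 and 733 CPM. Hox genes gave 0 of 3 in either direction, and Btg2 was the 1 of 8 cell cycle inhibitors and D cyclins that rose. For comparison with the counts of these lists, 3.47% of all tested genes rose and 1.04% fell.

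Some of these calls ended under another setting. Without members holding perivascular or endothelium UMIs, Bst2, Crabp1, Dlk1, Dnajb1, Fabp5, Fgf2, Gli3, Ifitm1, Mki67 and Msx1 were under 1.5-fold. With the gate shares of E13.5, Crabp1, Dlk1, Fgf2, Mki67, Nr3c1 and Pdgfra were, and with at most 5% mitochondrial UMIs Dnajb1 and Mt2 were. After thinning before the rule, Bst2, Dnajb1, Mki67, Pdgfra, Sox9 and Tagln were. Of 48 named genes past 1.5-fold that had a value in the gates, 44 stayed past it in supporting-gated cells and 28 in stromal-gated cells.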

How the data were processed

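Droplet single-cell RNA-seq matrices of XX gonad at E13.5 and E14.5, and of E11.5 and E12.5 for context, were used. Their values are UMI counts per gene and barcode, deposited by the authors with no normalization, for 31053 genes. Reads were processed with Cell Ranger 3.0.2 on mm10, per the submitters' processing notes; how cells were called is not stated in those notes.

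Members' UMIs were summed per library and divided by the total (CPM). Ratios carry exact conditional binomial intervals, CPM exact Poisson intervals and shares exact Clopper-Pearson intervals, all at 95% and for counting error only; no test is possible with 1 library per stage. Genes at 20 CPM in either sum were tested against 1.5-fold, and a 0 was set to 3 counts. Doublets were kept in the main analysis and removed in an alternative (Scrublet in scanpy 1.11.5, 175 cells per library). Analyses used Python 3.11.15, numpy 2.4.6, scipy 1.17.1 and pandas 2.3.3. Gene positions are from GENCODE vM21 (GRCm38).

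Named genes were the 15 highest and 15 lowest ratios at 50 CPM or more (without markers of germ, erythroid and leukocyte cells, mitochondrial, ribosomal, haemoglobin and clone-named genes), the 3 leading called genes of each of 27 lists, and 24 key genes; other members of a list described in full are named too. The members and lists were chosen with earlier results of these data known. Genes added after their values were seen are Eif3j2, Nme1, and single members of lists given as examples. Some results that the rule would name are not reported here.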

Additional observations from a re-analysis of the deposited data

Results flagged for a closer look

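Upk3b, a uroplakin of the gonadal surface epithelium, moved in opposite ways in the gates. Its log2 ratio was 0.67 in supporting-gated cells (42.7 and 68.2 CPM) and -0.99 in stromal-gated cells (72.2 and 36.4 CPM), while over all members it stood at 51.0 and 59.6 CPM. The difference between the gates was not tested, since each stage has 1 library.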

How the results depend on the processing

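No paired analysis was possible because each stage has 1 library and the labels give no replicate numbers. Against 194 genes higher and 58 lower, at most 5% mitochondrial UMIs gave 299 and 149, thinning to 3000 UMIs before the rule 374 and 148, and no minimum CPM 2424 and 1395; CPM without mitochondrial, ribosomal and haemoglobin genes gave 114 lower, and stromal-gated cells alone 132 lower. The higher share of called genes was 77.0%, and 66.7%, 71.6%, 63.5%, 71.3% and 63.0% under these settings in the same order; ratios centred on the median gene gave 69.0%. Of the 13 matrix genes higher, supporting-gated cells alone gave 5, and leaving out cells with perivascular or endothelium UMIs, an alternative added after seeing the data as were both ways of holding the gate shares, gave 6. In stromal-gated cells alone the log2 ratio turned to 0.36 for Mid1ip1, 0.053 for Myl9, 0.77 for Msx1 and -0.56 for Mt2. The other named genes past 1.5-fold kept their direction in all settings run where they had a value. The 16 immediate early genes higher stayed within 1.5 times that count in every setting. Depth limits genes under 20 CPM and the 41 to 47 endothelium-gated cells.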

Other observations

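Some genes, chosen here after their values were seen, differed by far more than the rest. Of 5587 tested genes, 12 stood 3-fold or more higher at E14.5 and 7 stood 3-fold or more lower. Sox12, a SoxC transcription factor gene, had 7 UMIs at E13.5 (0.41 CPM) and 352 at E14.5 (25.7 CPM), 62.1-fold higher with a counting interval of 29.8 to 156, although it stood at 21.5 CPM at E11.5 and 37.4 CPM at E12.5; germ cells had 0 and 5.76 CPM. Ifi204, of the interferon-inducible p200 family, had 399 UMIs at E13.5 (23.6 CPM) and 2 at E14.5, with 0 CPM at E11.5 and E12.5, 161.5-fold lower with an interval of 44.4 to 1338. Hdc, histidine decarboxylase, stood at 21.9, 28.8, 35.3 and 2.12 CPM over the 4 stages, and 43.7 and 2.97 CPM in the supporting gate at the last stages. Tpm3-rs7, a tropomyosin-related sequence, stood at 36.6 and 2.71 CPM, at 10.97 and 1.13 CPM in germ cells and at 43.8 and 2.46 CPM in endothelium-gated cells. Mid1, a ubiquitin ligase gene, stood at 31.1, 5.58, 31.4 and 8.41 CPM over the 4 stages, and the last stages gave 44.97 and 2.06 CPM in germ cells. The ICR strain is outbred, each stage is 1 library and the reads at the 3′ ends of these genes were not examined here, so a difference in expression and a difference in how reads of a library were counted to the gene cannot be told apart in these values.

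Of the 12 genes at least 3-fold higher, 3 that are on none of the lists were picked by eye. Nfkbiz went from 4.797 to 22.7 CPM (4.73-fold, interval 3.69 to 6.11), Maff from 9.42 to 31.2 CPM (3.31-fold) and Csrnp1 from 7.99 to 25.7 CPM (3.21-fold). Nfkbiz was at 4.82 and 22.2 CPM in the supporting gate, 4.98 and 24.2 CPM in the stromal gate, 17.8 and 51.7 CPM in endothelium-gated cells and 2.35 and 2.88 CPM in germ cells. The meiotic genes Sycp3 (7.76 to 38.0 CPM) and Syce3 (2.31 to 20.8 CPM) also rose in the members, with 40.6 and 22.03 CPM at E14.5 in the supporting gate and 27.9 and 13.55 CPM in the stromal gate, and stood at 397 and 1755 CPM and at 137 and 915 CPM in germ cells; the part of free RNA in this was not tested.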
